A study of Mus musculus with 8 samples.

Results

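Endothelial fatty acid handling was followed through 10 genes, Lpl, Gpihbp1, Angptl4, Cd36, Slc27a1, Fabp4, Fabp5, Meox2, Tcf15 and Pparg, which were picked by name for their known part in moving fatty acids from blood through capillary walls, out of 54532 genes in the read count table. All 10 were detected and all 10 had a mean of at least 10 counts over the 8 libraries, so every one entered the tests. The libraries were made from GFP+ (mG+) cells sorted by FACS from female mice that were 8 months old. Every mouse carried Tie2e-cre, which is active in endothelial cells (EC), and mTmG, a reporter that switches a cell from membrane Tomato to membrane GFP once Cre has acted. WT mice were Tie2e-cre; TERT+/+; mTmG and EC-Tert-KO mice were Tie2e-cre; TERTfl/fl; mTmG, so that the controls had Cre and the reporter as well and differed in the floxed telomerase gene. There was 1 library of each genotype from subcutaneous adipose tissue (SAT) of mice on a high-fat diet (HFD), and from SAT, visceral adipose tissue (VAT) and gastrocnemius muscle of mice on chow, which gave 4 pairs. No pair had a second library of the same genotype, whether a library held cells of 1 mouse or of several was not stated, and HFD was sampled in SAT alone. Tie2 is also active in part of the blood cell lineage, so the GFP gate can hold blood cells as well as EC.

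Triglyceride reaches capillaries in lipoproteins, and lipoprotein lipase (Lpl) cuts it into fatty acids at the vessel wall. Gpihbp1 carries the lipase across the EC and holds it on the luminal face, and Angptl4 inactivates the lipase. Cd36 and the transport protein Slc27a1 (FATP1) take up the released fatty acids, the binding proteins Fabp4 and Fabp5 carry them through the cytosol, and the transcription factors Meox2 and Tcf15 drive this programme in capillary EC of heart and muscle. Pparg is the nuclear receptor that is turned on by fatty acids and governs many of these genes. Several members are not specific to EC, since adipocytes and macrophages express Lpl, Cd36, Fabp4, Pparg and Angptl4 too.

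The libraries held between 6214269 counts (SAT HFD WT) and 18855772 counts (SAT chow WT). Tert, the targeted gene, had 114 counts in WT and 0 in EC-Tert-KO of SAT HFD, 70 and 11 in SAT chow, and 24 and 7 in muscle. In VAT it had 3 counts in the library labelled WT and 9 in the library labelled EC-Tert-KO, which goes against those labels at very low counts, and directions in VAT below are given by label alone. The summed level of 14 endothelial markers, such as Pecam1 and Cdh5, ran from 416 CPM (counts scaled to the same library size) in SAT HFD WT to 3288 CPM in muscle EC-Tert-KO. The other lists ran from 414 to 14690 CPM for 11 macrophage markers, from 65.8 to 30659 CPM for 9 neutrophil markers, from 776 to 3536 CPM for 10 stromal markers and from 66.9 to 696 CPM for 8 mural cell markers. B cell markers reached 1550 CPM and T cell markers 1531 CPM, both in SAT chow WT, epithelial markers reached 224 CPM in the same library, and myofibre markers stayed at or below 128 CPM. Adipocyte markers were near 0, with 1.42 to 31.5 CPM over 12 genes, Adipoq at 0 in 4 libraries and no more than 2.2 CPM in any. The 6 capillary markers summed to 115 to 497 CPM, with the lowest sum in SAT chow WT. Of these, Car4 and Aplnr had 0 counts in both SAT HFD libraries. Rgcc stood at 104 and 94.4 CPM in SAT HFD and at 54.1 and 177 CPM in SAT chow, WT first. In bulk RNA, fewer EC and less RNA per EC cannot be told apart, and this bears on every level below.

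**Figure D1:**
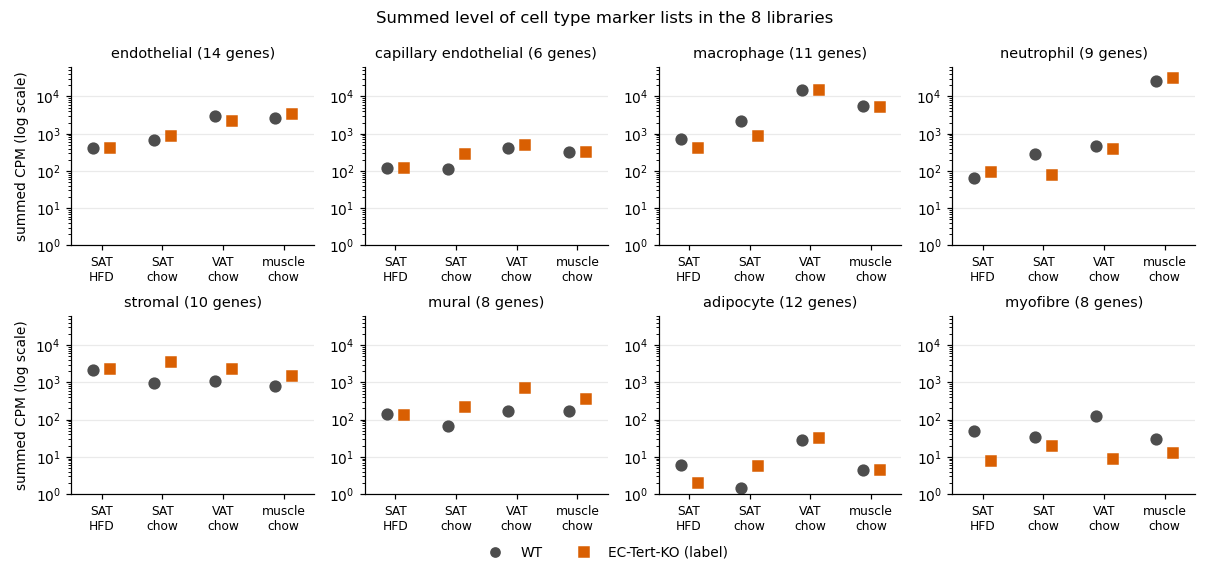
Summed CPM of 8 marker lists (y axis, log scale) in the 8 libraries, grouped by tissue and diet (x axis), with circles for WT and squares for libraries labelled EC-Tert-KO. Endothelial markers were lowest in SAT HFD, macrophage markers were highest in VAT at up to 14690 CPM, neutrophil markers were highest in muscle at up to 30659 CPM, and adipocyte markers stayed at or below 31.5 CPM.

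Fabp4 and Fabp5 are paralogs that lie close together on chromosome 3, and reads that fit both could be split between them. Their coding sequences (399 and 408 bases in GENCODE M21, GRCm38) were identical at 61.4% of aligned positions, and the longest exact run the coding transcripts shared was 12 bases. The stretches around that run are shown with the shared run in capitals. The run bounds exact matches between these transcripts only, and how reads were assigned to the genes was not tested. Fabp4 lies on the minus strand at chr3:10206065-10206106 and Fabp5 on the plus strand at chr3:10014987-10015028, both within coding exons.
Fabp4: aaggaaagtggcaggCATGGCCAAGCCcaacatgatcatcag
Fabp5: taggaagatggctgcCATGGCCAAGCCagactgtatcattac
Both lines are written along the transcript, 5′ to 3′. No member shared an exon base with another gene of the annotation.

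Of the 10 members, 4 had an entry in the RefSeq promoter table for GRCm38.p6, namely Cd36, Meox2, Pparg and Slc27a1, with 8 start sites in all. Tcf15 is a basic helix-loop-helix factor, a class that binds E-boxes, and the 250 bases before the start of Cd36, the member with the widest fitted difference between tissues on chow, and of Meox2, the homeobox partner of Tcf15, are shown with the E-box letters CANNTG in capitals. The Cd36 window is chr5:17835897-17836146 on the minus strand and the Meox2 window is chr12:37108290-37108539 on the plus strand.
Cd36: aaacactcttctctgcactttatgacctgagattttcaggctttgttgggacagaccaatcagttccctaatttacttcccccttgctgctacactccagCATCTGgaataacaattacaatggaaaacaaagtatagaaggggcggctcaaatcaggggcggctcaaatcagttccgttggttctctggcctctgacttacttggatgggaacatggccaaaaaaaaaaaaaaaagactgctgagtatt
Meox2: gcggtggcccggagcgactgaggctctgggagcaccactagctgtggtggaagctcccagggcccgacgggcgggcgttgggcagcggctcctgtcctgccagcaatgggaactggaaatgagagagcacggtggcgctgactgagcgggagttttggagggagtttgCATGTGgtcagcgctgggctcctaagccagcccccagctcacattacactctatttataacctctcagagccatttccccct
The match began 150 bases before the start in Cd36 and 82 bases before it in Meox2. Of the 8 member windows 7 held CANNTG, as did 66.2% of all 32851 windows, which is read on both strands because it is its own reverse complement. CAGCTG, one form of CANNTG, was in 1 of the 8 and in 13% of all. The homeobox letters TAATTA, searched on both strands, were in 0 of the 8 and in 4.84% of all windows.

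On the lipase side, levels were highest in VAT. Lpl (chr8:68880491-68907448) stood at 73.2 CPM in WT and 60.7 CPM in EC-Tert-KO of SAT HFD, at 61.1 and 106 CPM in SAT chow, at 411 and 369 CPM in the VAT libraries labelled WT and EC-Tert-KO, and at 120 and 74.5 CPM in muscle. Both VAT libraries lay above the other 6, among which the tissues overlapped. Gpihbp1 (chr15:75596628-75599481) stood at 4.63 and 9.96 CPM in SAT HFD, 11.9 and 15.5 CPM in SAT chow, 51.6 and 66.5 CPM in VAT and 40.1 and 49.7 CPM in muscle, WT first. Its 4 pairs did not overlap, in the order VAT, muscle, SAT chow and SAT HFD, and the highest library was 14.4 times the lowest. Angptl4 (chr17:33773750-33781575) stood at 50.5 and 38.6 CPM in SAT HFD, 17.7 and 58.4 CPM in SAT chow, 35.4 and 160 CPM in VAT and 5.89 and 11.6 CPM in muscle. Muscle was below all other libraries, whereas VAT overlapped SAT HFD and SAT HFD overlapped SAT chow.

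Among the uptake proteins, Cd36 (chr5:17781690-17888801) had the widest spread between tissues. It stood at 130 CPM in WT and 73.7 CPM in EC-Tert-KO of SAT HFD, 147 and 209 CPM in SAT chow, 1518.5 and 2065 CPM in VAT and 421 and 497 CPM in muscle. The 4 pairs did not overlap, and the mean of VAT was 18.1 times that of SAT HFD, on the scale of mean log2 CPM. Those groups differ in diet as well as depot. On chow the fitted log2 difference of VAT over SAT was 3.34. Slc27a1 (chr8:71568882-71587302) stood at 19.4 and 18.6 CPM in SAT HFD, 16.4 and 17.7 CPM in SAT chow, 36.6 and 70.7 CPM in VAT and 16.0 and 14.9 CPM in muscle. Only VAT stood well apart for Slc27a1, and the other 6 libraries lay between 14.9 and 19.4 CPM.

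The binding proteins had different tissue orders. Fabp4 (chr3:10204088-10208576), the adipocyte and capillary EC form, stood at 130 and 71.0 CPM in SAT HFD, 107 and 162 CPM in SAT chow, 409 and 745 CPM in VAT and 309 and 386 CPM in muscle. VAT lay above muscle, muscle lay above SAT, and both diets overlapped in SAT. Fabp5 (chr3:10012548-10016607), the epidermal form that EC also express, stood at 19.7 and 12.05 CPM in SAT HFD, 29.3 and 12.6 CPM in SAT chow, 17.7 and 20.7 CPM in VAT and 42.4 and 34.7 CPM in muscle. Muscle was above the other 6 libraries, which overlapped, and the highest library was 3.52 times the lowest, the smallest range of the 10 members.

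Of the transcription factors, Meox2 and Tcf15 were highest in muscle and Pparg in VAT. Meox2 (chr12:37108540-37179534) stood at 4.19 and 1.78 CPM in SAT HFD, 4.95 and 7.63 CPM in SAT chow, 29.8 and 25.9 CPM in VAT and 28.2 and 47.3 CPM in muscle. Muscle and VAT overlapped, and both were above SAT. Tcf15 (chr2:152143561-152149097) stood at 6.36 CPM in SAT HFD WT and at 0 counts in SAT HFD EC-Tert-KO, where 3 counts would be 0.232 CPM, at 5.01 and 5.09 CPM in SAT chow, 18.1 and 12.8 CPM in VAT and 25.7 and 31.8 CPM in muscle. The tissues ran from muscle to VAT to SAT without overlap between tissues. Pparg (chr6:115360951-115490399) stood at 4.34 and 7.18 CPM in SAT HFD, 6.75 and 8.87 CPM in SAT chow, 40.2 and 39.2 CPM in VAT and 9.33 and 11.8 CPM in muscle. Its 2 VAT libraries were within 1.03-fold of each other and above all the rest. Coordinates are those of the count table, on GRCm38.

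**Figure D2:**
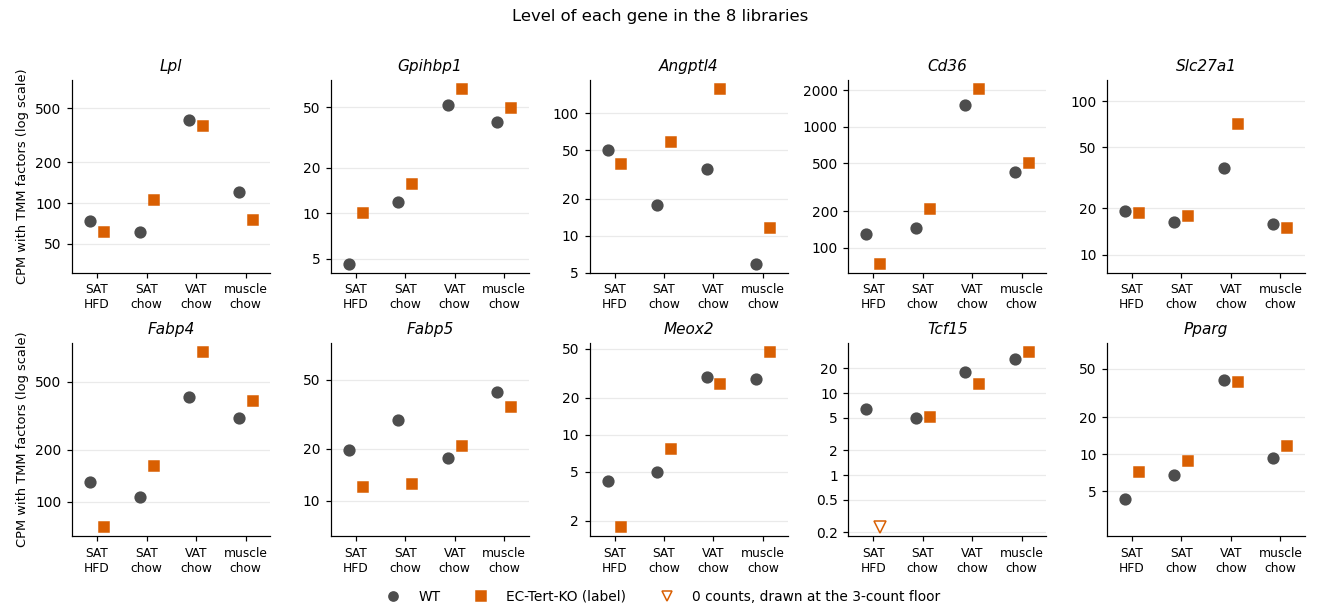
CPM with TMM factors (y axis, log scale, a range of its own for each gene) of the 10 genes in the 8 libraries, by tissue and diet (x axis), with circles for WT, squares for libraries labelled EC-Tert-KO and an open triangle for 0 counts. By mean log2 CPM, VAT is highest for 7 genes and muscle for Fabp5, Meox2 and Tcf15. For Angptl4 and Meox2 the highest group overlaps the next.

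Levels of different genes can be set side by side only per length, and here the length used decided the order. With the length of the longest coding transcript, Fabp4 was the member with the highest TPM (reads per length, scaled to the same sum in each library) in all 4 tissue and diet groups, at 265 in SAT HFD, 251 in SAT chow, 1495 in VAT and 868 in muscle, and Cd36 came next at 70.5, 87.0, 1229 and 302. With the gene length of the count table Cd36 came first in every group, at 87.1, 105, 1533 and 382 TPM, and Fabp4 second. The table gives Fabp4 a length of 4489 bases, which is its whole gene span, against 896 bases for its coding transcript. Under the coding transcript length, Angptl4 was last in muscle at 6.02 TPM and Meox2 was last in the 3 adipose groups, at 3.01, 4.48 and 27.7 TPM.

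The comparison of VAT with SAT on chow asked how the programme differed between fat depots, and the members that passed were higher in VAT. Cd36, Lpl, Gpihbp1, Pparg and Fabp4 rose, that is 5 of 10 members at an adjusted p under 0.05 (quasi-likelihood test of edgeR, Benjamini-Hochberg), against 3.13% of the 16971 genes tested called higher and 1.87% called lower. Cd36 was higher by 3.34 ± 0.45 on the log2 scale (SE, 2 libraries per tissue, adjusted p = 0.0107). Pparg followed with 2.37 ± 0.46 (adjusted p = 0.0288), Lpl with 2.21 ± 0.40 (adjusted p = 0.0238), Gpihbp1 with 2.11 ± 0.37 (adjusted p = 0.0195) and Fabp4 with 2.09 ± 0.46 (adjusted p = 0.0428). Meox2 (2.15 ± 0.56, adjusted p = 0.0748), Slc27a1 (1.62 ± 0.41, adjusted p = 0.0656), Angptl4 (1.29 ± 0.57, adjusted p = 0.247) and Tcf15 (1.54 ± 1.25, adjusted p = 0.543) did not pass. Fabp5 had a fitted log2 difference of -0.0075 ± 0.45, and its sign changed with the scaling. The median of the 10 was 2.10, beside -0.13 over all genes tested.

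Markers moved with this comparison. Of the 14 endothelial markers 10 were called higher in VAT (median log2 difference 2.08, from 0.66 for Pecam1 to 2.84 for Ptprb), and of the 11 macrophage markers 11 were called higher (median 3.67), while 0 of the 4 adipocyte markers that could be tested were called, with a median of 3.06 (2.78 for Slc2a4 to 5.46 for Cidec). The summed adipocyte level was 1.42 and 5.77 CPM in WT and EC-Tert-KO of SAT chow and 27.6 and 31.5 CPM in VAT. The markers' part in the members' differences was not tested. The count of 5 rested on both VAT libraries, as it was 1 (Cd36) without the library labelled WT and 0 without the library labelled EC-Tert-KO, each of which leaves a single VAT library. It was 3 (Cd36, Lpl and Gpihbp1) without either muscle library.

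In muscle against SAT on chow no member passed the threshold. The background here was 1.1% of genes called higher and 0.165% called lower, and 5 members had an unadjusted p under 0.05. Those were Meox2 (log2 difference 2.58 ± 0.57, adjusted p = 0.0832), Gpihbp1 (1.72 ± 0.36, adjusted p = 0.0727), Fabp4 (1.38 ± 0.45, adjusted p = 0.241), Cd36 (1.37 ± 0.42, adjusted p = 0.213) and Angptl4 (-1.99 ± 0.59, adjusted p = 0.195), all from edgeR. Tcf15 had the second largest fitted difference at 2.56 ± 1.28 but an adjusted p of 0.52, with its 0 count in 1 SAT library of the fit. The DESeq2 Wald test called 1063 of 16971 genes, 796 of them higher. Among these were 5 members, Cd36, Fabp4, Gpihbp1 and Meox2 higher and Angptl4 lower. Endothelial markers had a median of 2.22 with 7 of 14 called higher in muscle, and neutrophil markers a median of 7.44 with 8 of 9 called higher, and their part was not tested.

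Muscle and VAT were also set against each other. Angptl4 fell by 3.27 ± 0.62 on the log2 scale in muscle (adjusted p = 0.0431) and Lpl fell by 2.01 ± 0.40 (adjusted p = 0.04996), so the lipase and its inhibitor were both lower in muscle, against 1.03% of genes called lower and 0.99% called higher. Cd36 (-1.96 ± 0.43, adjusted p = 0.066), Pparg (-1.93 ± 0.45, adjusted p = 0.0788) and Slc27a1 (-1.76 ± 0.41, adjusted p = 0.0794) had nearly the same size of difference and did not pass. Fabp5 (0.96 ± 0.44), Tcf15 (1.02 ± 1.22) and Meox2 (0.44 ± 0.54) had positive values, and Gpihbp1 (-0.39 ± 0.35) and Fabp4 (-0.71 ± 0.44) negative ones, with no call. The endothelial markers gave a median of 0.12 with 0 of 14 called in this comparison, whereas 9 of 11 macrophage markers were lower in muscle (median -3.64) and 8 of 9 neutrophil markers higher (median 6.41). The part of those cells in the Lpl and Angptl4 values was not tested. Neither call held without any one of the VAT or muscle libraries, and the Lpl call was lost with DESeq2 size factors (adjusted p = 0.0548) and with library totals (adjusted p = 0.063).

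**Figure D3:**
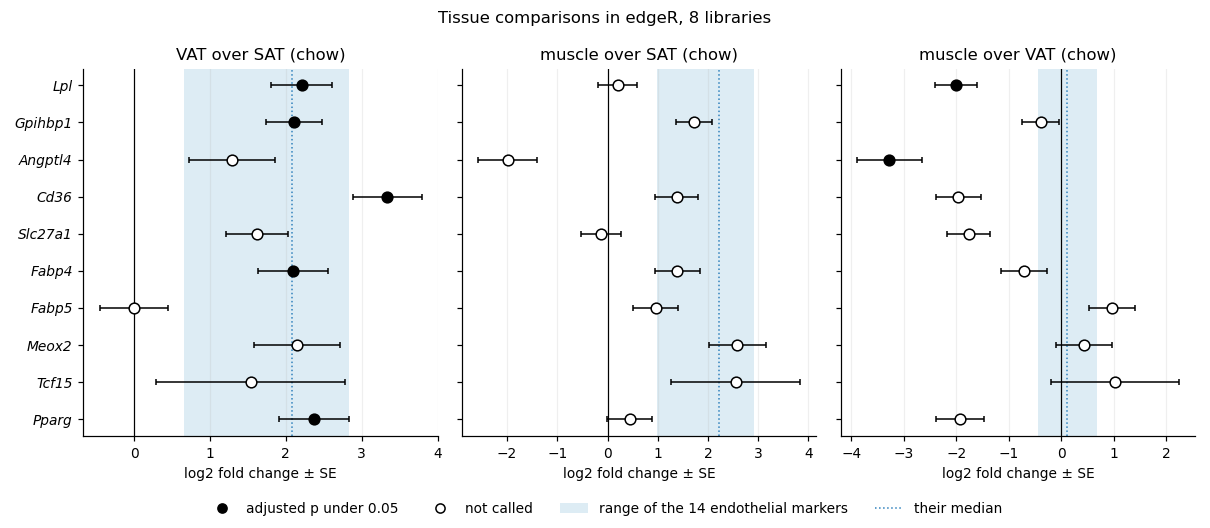
Log2 fold change ± SE from edgeR (x axis) of the 10 genes in 3 tissue comparisons on chow, filled where the adjusted p was under 0.05, with a band for the range and a dotted line for the median of the 14 endothelial markers. In VAT over SAT, Cd36 (3.34) lies above the band and Fabp5 (-0.0075) below it. In muscle over SAT, Lpl, Pparg, Fabp5, Slc27a1 and Angptl4 lie below it. In muscle over VAT 6 genes lie below it, 5 of them at -1.76 to -3.27, and Fabp5 (0.96) and Tcf15 (1.02) lie above it.

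HFD and chow were compared in SAT. No member passed the test, and neither did any other gene, so the background was 0% higher and 0% lower, with 1577 genes at an unadjusted p under 0.05 in edgeR. The DESeq2 Wald test called 246 genes, none of them a member. Gpihbp1 had the lowest p of the list, with -0.95 ± 0.37 on the log2 scale (adjusted p = 0.522 by edgeR, under 0.05 before adjustment). Cd36 gave -0.78 ± 0.42, Meox2 -1.10 ± 0.58, Angptl4 0.61 ± 0.58 and Slc27a1 0.16 ± 0.40. The median of the members was -0.41, beside -0.32 over all genes, a shift that was -0.09 with DESeq2 size factors. The 14 endothelial markers had a median of -1.17 and the 6 capillary markers -2.53, and 0 of either were called. Both lists were uneven. The endothelial markers ran from -2.60 for Emcn to -0.36 for Cldn5, with Pecam1 at -0.57. The capillary markers ran from -9.88 for Aplnr, with 0 counts in both SAT HFD libraries, to -0.09 for Rgcc.

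EC-Tert-KO was compared with WT across the 4 pairs. None of the 10 members passed, against 0.00589% of genes called higher (1 gene) and 0% called lower, with 277 genes at an unadjusted p under 0.05 in edgeR and 19 genes called by DESeq2. The lowest p among the members was that of Angptl4, with 1.15 ± 0.42 on the log2 scale (adjusted p = 0.9996, under 0.05 before adjustment, edgeR), higher by label in 3 of 4 pairs and in 2 of the 3 outside VAT. It was 0.80 without either VAT library, whose Tert counts went against the labels. Gpihbp1 followed with 0.52 ± 0.25 (adjusted p = 0.9996) and was higher by label in 4 of 4 pairs, and in 3 of the 3 outside VAT. Fabp5 gave -0.50 ± 0.32, Pparg 0.35 ± 0.31, Fabp4 0.24 ± 0.32, Slc27a1 0.23 ± 0.28, Cd36 0.10 ± 0.30, Meox2 0.04 ± 0.40, Lpl -0.08 ± 0.28 and Tcf15 -0.91 ± 0.97.

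Single pairs showed larger ratios, but with 1 library a genotype these compare 2 libraries, with 95% counting intervals that leave out variation between mice. A ratio was called where its interval lay wholly beyond 2-fold. By that rule 18.9% of genes were called higher in SAT chow and 2.05% in VAT. The WT library of SAT chow also stood apart in Malat1, at 299 CPM against 2176 to 6005 CPM in the others. Angptl4 went from 286 to 942 counts in SAT chow, 3.30-fold higher in CPM in EC-Tert-KO (log2 1.72, interval 1.53 to 1.92), and from 319 to 2187 counts in VAT, 4.51-fold higher in the library labelled EC-Tert-KO (log2 2.17, interval 2.004 to 2.35). In muscle it went from 96 to 158 counts, 1.97-fold higher, and in SAT HFD from 349 to 500 counts, 1.31-fold lower in CPM. Stromal markers moved in the same pairs, from 943 to 3536 CPM in SAT chow, 1116 to 2307 CPM in VAT, 776 to 1444 CPM in muscle and 2197 to 2250 CPM in SAT HFD, and mural markers from 66.9 to 220 CPM, 169 to 696 CPM, 174 to 367 CPM and 141 to 133 CPM in that order. Their part in the Angptl4 ratios was not tested.

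Tcf15 was the only member called lower in a pair, SAT HFD, where 9.71% of genes were called lower. In SAT HFD it had 44 counts in WT and 0 in EC-Tert-KO, at least 27.5-fold lower against a floor of 3 counts in the EC-Tert-KO library. Of 2249 genes with 30 to 60 counts in that WT library, 18.7% also had 0 counts in the EC-Tert-KO library. In the other pairs Tcf15 was 1.01-fold higher in SAT chow, 1.41-fold lower in VAT by label and 1.24-fold higher in muscle.

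By median, the list was lower in SAT HFD and higher, by label, in the 3 chow pairs. In SAT HFD, where 10.7% of 14994 genes were called higher and 9.71% lower, 1 member was called and 7 intervals lay below 0, as did those of 33.0% of all genes, with a median log2 ratio of -0.55 beside 0.05 for all genes. Fabp4 (-0.87), Cd36 (-0.82), Meox2 (-1.22) and Fabp5 (-0.70) were among them, whereas Gpihbp1 (1.10) and Pparg (0.72) had intervals above 0, as did 38.6% of genes. In SAT chow, where 18.9% of genes were called higher and 11.5% lower, 1 member was called and 7 intervals lay above 0, with a median of 0.45, where 41.3% of genes had intervals above 0 and 41.1% below. Fabp5 was the exception there, at 473 counts in WT and 203 in EC-Tert-KO (log2 -1.22), and the WT library of this pair had 299 CPM of Malat1, a nuclear RNA, against 2176 to 6005 CPM in the other 7. In VAT 2.05% of genes were called higher and 1.9% lower, 1 member was called, and 5 intervals lay above 0 and 2 below, against 26.8% and 25.0% of genes, with a median of 0.30. Slc27a1 (0.95) and Fabp4 (0.86) came next to Angptl4. In muscle 2.44% of genes were called higher and 1.72% lower, 0 members were called, and 7 intervals lay above 0 and 2 below, against 27.2% and 29.4% of genes, with a median of 0.31. Meox2 (0.74) and Lpl (-0.69) had the largest ratios there after Angptl4. For 6 of the 10 members 1 pair had an interval above 0 and another an interval below 0, and Gpihbp1 was the one with all 4 intervals above 0. Both counts rest on the VAT labels. With these turned, Gpihbp1 would have 1 interval below 0 (log2 -0.36) and the 6 members would be 7. The share of all genes with intervals on both sides of 0 is not given here, so neither count is read as a trait of the members.

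**Figure D4:**
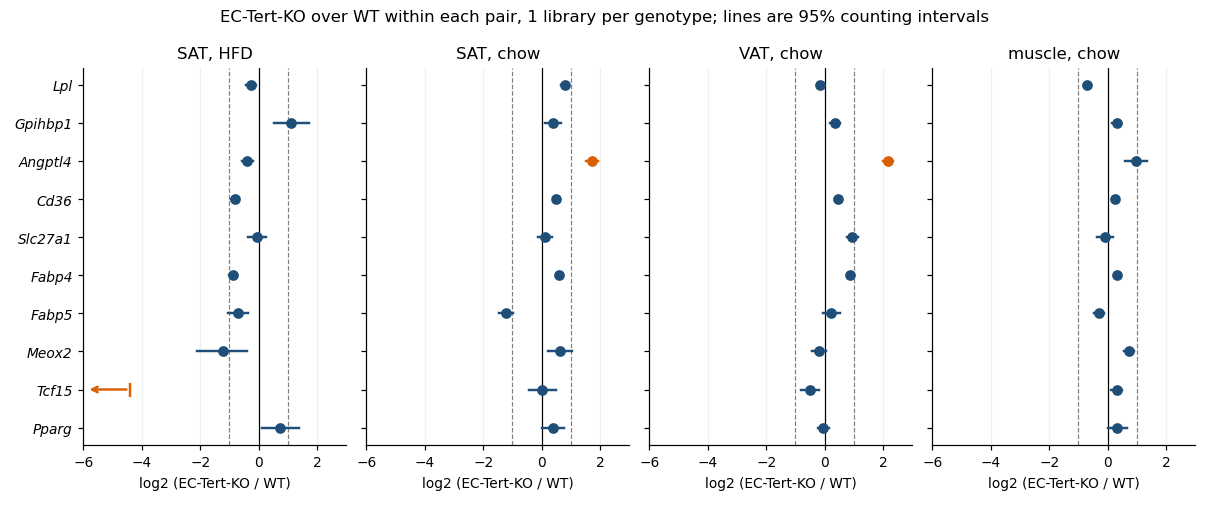
Log2 ratio of the library labelled EC-Tert-KO over WT (x axis) for the 10 genes in each of the 4 pairs, with 95% counting intervals as lines, dashed lines at 2-fold and orange where the interval lay wholly beyond 2-fold. The arrow for Tcf15 in SAT HFD starts at the upper end of its interval (-4.42) because the EC-Tert-KO library had 0 counts, and Angptl4 lies at 1.72 and 2.17 in SAT chow and VAT.

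Other genes of the pathway, 62 in 5 lists of lipase partners, membrane uptake, binding and activation, storage and oxidation, and regulators, were counted in the same fits, where 44 could be tested. VAT over SAT called 7 of the 44 higher and 0 lower, against 3.13% of all genes tested called higher and 1.87% lower. The 7 were Cavin2, Cav1, Cav2, Scarb1 and Nrp1, of membrane uptake and its regulation, and Plin2 and Mgll, of lipid droplets. Cavin2, a coat protein of caveolae, stood at 26.6 and 40.4 CPM in SAT chow and 199 and 172 CPM in VAT, WT first (log2 difference 2.48 ± 0.34, adjusted p = 0.0107 by edgeR). Plin2, which coats lipid droplets, went from 52.1 and 76.5 CPM to 509 and 869 CPM (3.42 ± 0.51, adjusted p = 0.0133), and Mgll, which splits monoglyceride, from 22.2 and 49.8 CPM to 145 and 161 CPM (2.19 ± 0.34, adjusted p = 0.0148). In every one of these the VAT libraries lay above both SAT chow libraries. Endothelial markers had a median of 2.08 in this comparison (0.66 to 2.84) and macrophage markers 3.67. The part of these markers was not tested.

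Muscle over SAT, where 1.1% of all genes tested were called higher and 0.165% lower, called 7 of the 44 higher and 0 lower. They included Cavin2 (2.81 ± 0.34, adjusted p = 0.0137), Acsl1, which activates fatty acids with coenzyme A (2.24 ± 0.31, adjusted p = 0.0209), and Dgat2, which makes triglyceride (2.83 ± 0.39, adjusted p = 0.0229). Muscle over VAT called Dgat2 (2.58 ± 0.39, adjusted p = 0.0192) and Slc27a4, a transport protein related to Slc27a1 (1.87 ± 0.32, adjusted p = 0.0307), and 0 lower. Slc27a4 stood at 126 and 113 CPM in muscle and at 9.42 to 33.5 CPM in the other 6 libraries, whereas Slc27a1 was highest in VAT. EC-Tert-KO over WT and SAT HFD over SAT chow called 0 of the 44, with 1 and 14 of them at an unadjusted p under 0.05 in edgeR. The 1 was Mgll, higher by label, and all 14 were lower in SAT HFD. Among all 16971 genes tested, 277 and 1577 had such a p, and their directions are not given here. The background of muscle over VAT was 0.99% of genes called higher and 1.03% lower. Endothelial markers had a median of 2.22 in muscle over SAT, 0.12 in muscle over VAT and -1.17 in SAT HFD over SAT chow. Their part was not tested.

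Counts of the members were also set against the summed counts of the 14 endothelial markers in the same library. The sums ran from 2877 in SAT HFD WT to 44616 in muscle EC-Tert-KO. The make-up of the sum differed between libraries, so it is not a measure of EC content. Pecam1 gave 145 of 416 CPM in SAT HFD WT, 204 of 417 CPM in SAT HFD EC-Tert-KO and 454 of 3003 CPM in VAT labelled WT. The ratios are a description with no test, since members and markers come from the same libraries. Gpihbp1, which spanned 14.4-fold in CPM, spanned 2.67-fold per endothelial count, from 11.1 to 29.7 counts per 1000, and the tissues overlapped. With Pecam1, Cdh5 and Tie1 alone as the denominator it spanned 3.54-fold, with VAT above the rest. Those 3 genes are among the 14, so the denominators are not independent. Pecam1, Cdh5 and Tie1 stood at 145, 13.6 and 15.2 CPM in SAT HFD WT and at 454, 302 and 159 CPM in VAT labelled WT. Cd36 stayed highest in VAT, at 506 and 922 per 1000 against 151 to 312 in the other 6 libraries, and both VAT libraries were also above the rest with the 3-gene denominator.

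Muscle had the lowest ratio for Lpl, Pparg, Angptl4 and Slc27a1, with both muscle libraries below the other 6 under both denominators. Lpl was at 45.8 and 22.7 per 1000 in muscle and 90.9 to 176 elsewhere, and Pparg at 3.55 and 3.59 in muscle and 10.04 to 17.5 elsewhere. Angptl4 was at 2.24 and 3.54 in muscle and 11.8 to 121 elsewhere, and SAT HFD had the highest values at 121 and 92.6. With the 3-gene denominator SAT HFD (291 and 164 per 1000) overlapped VAT (38.7 and 227), WT first. Fabp5 had the opposite place for VAT, at 5.88 and 9.23 per 1000 against 10.6 to 47.3 elsewhere, below the other 6 libraries under both denominators. Meox2 ran from 4.26 to 14.4 and was highest in muscle, and its lowest library was SAT HFD EC-Tert-KO. The full order of the 4 groups was the same under both denominators for 3 of the 10 members, the highest group for 8 and the lowest group for 9.

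Within pairs, the ratio of EC-Tert-KO to WT per endothelial count changed for some members. In VAT, where the library labelled EC-Tert-KO had 2240 CPM of endothelial markers and the one labelled WT 3003 CPM, log2 ratios per endothelial count were 2.60 for Angptl4, 1.37 for Slc27a1, 1.29 for Fabp4, 0.87 for Cd36 and 0.79 for Gpihbp1. In muscle, Gpihbp1, Fabp4, Tcf15 and Pparg lay between -0.02 and 0.01, and Lpl was at -1.02. In SAT chow Angptl4 was at 1.38 and Fabp5 at -1.55.

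**Figure D5:**
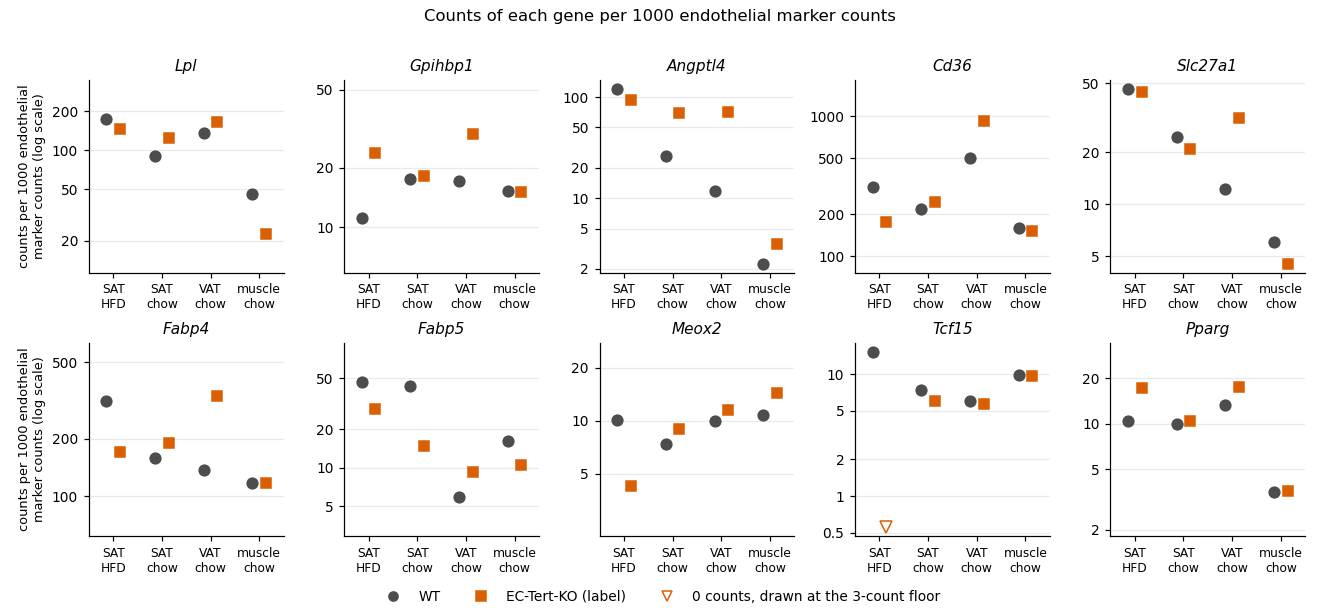
Counts of each of the 10 genes per 1000 counts of the 14 endothelial markers (y axis, log scale, a range of its own for each gene) in the 8 libraries by tissue and diet (x axis), with circles for WT, squares for libraries labelled EC-Tert-KO and an open triangle for 0 counts. Cd36 is highest in VAT at 506 and 922, and Lpl, Angptl4, Slc27a1 and Pparg are lowest in muscle.

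The genes whose pattern was most like each member were found by the root mean square (RMS) difference of log2 CPM, centred on each gene's mean, over the 8 libraries among the 16971 genes tested. Meox2 lay closest to Erg, an endothelial transcription factor (0.20), Tie1, an endothelial receptor (0.21), and Cav2 (0.23), against a spread of Meox2 itself of 1.58. Fabp4 lay closest to the tight junction gene Cldn5 (0.16), then Gstm2 and Cpne8 (both 0.24). Cd36 lay closest to Plekhg5 (0.26), Man1c1 (0.29) and Stard8 (0.35), and Gpihbp1 to Trim47 (0.26), Gpr160 and Ifitm2 (both 0.27). For Angptl4 the nearest genes were Cd248, a surface protein of fibroblasts and pericytes (0.47), Slit3 (0.58) and Pla1a (0.60), against its own spread of 1.39. Tcf15 was nearest to Fam217b (0.38), Efna1 (0.41) and Abcd2 (0.48). Those Tcf15 matches depend on its 0 counts in SAT HFD EC-Tert-KO, which the prior count of 0.5 set at log2 CPM -4.71.

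Lpl lay closest to Rbpj (0.13), Sbno2 (0.17) and Myof (0.20), Pparg to Pros1 (0.21) and Zcchc24 (0.22), Slc27a1 to Slc37a2, Ryr1 (both 0.24) and Slc39a1 (0.26), and Fabp5 to Cyb5r4 (0.13), Chaf1b (0.15) and Impa2 (0.21). Within the list, the closest pair was Lpl and Pparg (0.40), and Pparg ranked 73 of 16970 genes by likeness to Lpl. Gpihbp1 and Fabp4 (0.60) and Cd36 and Fabp4 (0.64) came after Lpl with Slc27a1 (0.55). Tcf15 stood farthest from the others, its nearest member being Meox2 at 1.79. Its own spread was 2.90, with log2 CPM of -4.71 in SAT HFD EC-Tert-KO, where it had 0 counts, and 2.34 to 4.99 in the other libraries. Its distances therefore depend on that library. For Fabp5 the nearest member was Fabp4 at 1.02, which is wider than its own spread of 0.61.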

How the data were processed

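RNA of FACS-sorted mG+ cells from 8 mouse libraries was extracted with the Rneasy mini plus kit and made into libraries with the SMARTER mRNA-Seq kit, per the labels, and the study's methods name Trizol and sequencing by Novogene. The submitters' processing notes name HISAT2 2.0.5 and GRCm38 (mm10), and the counting program, read length and strand are not given in the sources used here. The authors deposited raw read counts per gene, 1 column per library, in 1 table, which is the unit used here, and all its per-library columns were used.

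The members and lists were chosen with earlier results of these data known. Groups were taken from the labels. Counts were scaled with trimmed mean of M-values (TMM) factors over all genes and given as CPM with those factors. The 16971 genes whose counts averaged 10 or more were tested in edgeR 4.0.16 (R 4.3.3) with robust quasi-likelihood over the 8 libraries, with a term for each tissue and diet and 1 for genotype, which left 3 residual degrees of freedom. Adjusted p follow Benjamini and Hochberg, with a threshold of 0.05. SE is the absolute log2 fold change divided by the root of the F statistic. With 1 library for each combination of tissue, diet and genotype, no spread between replicate libraries could be measured. The residual behind each SE and p-value is how far the EC-Tert-KO to WT ratios differ between the pairs, moderated over genes. Nothing states the libraries to be separate mice. Within a pair, log2 ratios used a prior count of 0.5 and exact binomial (Clopper-Pearson) 95% intervals on the counts, which cover counting error only, and tested genes averaging 10 or more counts over the pair were the background. TPM used the gene length of the table and, in its place, that of the longest coding transcript of GENCODE M21. Named genes were the 10 members, up to 3 other pathway genes per direction and comparison with the lowest p among those called, and the 3 genes with the lowest RMS difference to each member, of which 1 is not reported here. The other called pathway genes were few and are named too. Marker lists covered endothelial, capillary, adipocyte, macrophage, neutrophil, stromal, myofibre, mural, epithelial, B and T cells. The test was checked on simulated data. Alternatives were DESeq2 1.42.0 (Wald test and size factors), library totals, other filters, each library left out and the 6 chow libraries alone. Others were no block for EC-Tert-KO over WT, no genotype term for the other comparisons, a prior count of 5 and a 3-gene endothelial denominator. TMM on the tested genes, the transcript length and the VAT labels turned were added after seeing the data. The protein sequences of the members are not analysed here.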

Additional observations from a re-analysis of the deposited data

Results flagged for a closer look

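For 6 members the counting interval of EC-Tert-KO over WT lay above 0 in 1 pair and below 0 in another, and these are listed with the highest and the lowest log2 ratio of the 4 pairs. Cd36 ran from 0.51 in SAT chow to -0.82 in SAT HFD. Fabp4 ran from 0.86 in VAT to -0.87 in SAT HFD. Lpl ran from 0.79 in SAT chow to -0.69 in muscle. Meox2 ran from 0.74 in muscle to -1.22 in SAT HFD. Tcf15 ran from 0.31 in muscle to -6.99 in SAT HFD, where the fitted ratio depends on the prior count of 0.5 because the EC-Tert-KO library had 0 counts. Angptl4 ran from 2.17 in VAT, by labels that the Tert counts went against, to -0.39 in SAT HFD. The difference between pairs was not tested, since each pair has 1 library per genotype. The share of all genes with intervals on both sides of 0, or with the lowest ratio in SAT HFD, is not given here. By label, SAT HFD held the lowest ratio for 5 of these 6 members, and with the VAT labels turned, a reading added after the data were seen, for 4 of 6, as Angptl4 would be -2.17 in VAT. The endothelial marker sum was 416 CPM in the WT and 417 CPM in the EC-Tert-KO library of that pair, the lowest 2 of the 8 libraries, and its part in the ratios was not tested.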

How the results depend on the processing

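Across 89 recomputed counts of members, 64 stayed within 1.5 times, 14 were lower and 11 higher, and 30 of 901 values for single members changed sign. The counts for EC-Tert-KO over WT and for SAT HFD over SAT chow were 0 under every alternative run. The number of all genes called changed as well. With no filter it was 2100 of 29627 genes for VAT over SAT, 971 for muscle over SAT and 1159 for muscle over VAT. The main run called 849, 215 and 343 of 16971 genes. The DESeq2 Wald test called 1063 of 16971 for muscle over SAT and 1256 for muscle over VAT. For VAT over SAT the count of 5 became 8 with no filter and 0 to 7 when each library was left out, and DESeq2 size factors called 72.0% of the called genes higher in place of 62.5%. For muscle over SAT the count of 0 became 5 with no filter, 5 with the DESeq2 Wald test, 1 with the 6 chow libraries and 0 to 3 with a library left out. For muscle over VAT the count of 2 became 1 with DESeq2 size factors, 1 with library totals, 5 with no filter, 5 with the DESeq2 Wald test, 1 with the 6 chow libraries and 0 to 5 with a library left out. Of the single libraries, SAT HFD WT (3) and SAT chow EC-Tert-KO (2) moved muscle over SAT, and for muscle over VAT the count was 5 without either SAT chow library, 1 without either SAT HFD library and 0 without any VAT or muscle library. Without SAT chow EC-Tert-KO, 441 genes were called for SAT HFD over SAT chow in place of 0. The cause was not tested.

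The block was the tissue and diet of a pair, as the labels give no replicate numbers. Without that block, EC-Tert-KO over WT called 0 members, as it did with the block. For the tissue and diet comparisons the genotype term was left out in its place, and tissue and diet were kept. Muscle over SAT then called 1 member in place of 0, muscle over VAT 3 in place of 2 and VAT over SAT 7 in place of 5. All genes called there were 338, 539 and 1150 in that order.

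Values that changed sign were not called. EC-Tert-KO over WT turned for Lpl with library totals (0.0233). With a library left out, EC-Tert-KO over WT ranged from -0.0363 to 0.41 for Cd36, from -0.38 to 0.12 for Lpl and from -0.24 to 0.40 for Meox2, and SAT HFD over SAT chow from -0.40 to 1.47 for Angptl4, -1.03 to 0.29 for Fabp4, -0.79 to 0.33 for Fabp5, -0.70 to 0.31 for Lpl and -9.02 to 0.30 for Tcf15. VAT over SAT ranged from -0.47 to 0.66 for Fabp5, muscle over SAT from -0.22 to 0.83 for Lpl and -0.37 to 0.12 for Slc27a1, and muscle over VAT from -0.10 to 0.89 for Meox2 and -0.12 to 1.75 for Tcf15. VAT over SAT for Fabp5 was 0.17 with DESeq2 size factors, 0.17 with the Wald test, 0.0381 with library totals and 0.0432 with TMM on the tested genes. With a 3-gene endothelial denominator 3 of 10 orders held, and with the transcript length 0 of 4 groups kept Cd36 as the highest member.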
